A study of Mus musculus with 8 samples.

Results

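The genes described here encode the subunits of the mitochondrial oxidative phosphorylation machinery. They were taken by symbol from the expression table of mouse pancreatic tumour isografts, that is, tumours grown from transplanted mouse tumour tissue. The pattern took symbols beginning Nduf followed by a, b, c, s or v and a digit, Sdha to Sdhd, Uqcr, Cox4 to Cox8 with a letter a, b, c or i, Atp5, and the mitochondrial Nd, Co, Cytb and Atp genes. It found 102 of 19431 rows, which are 94 of the 19129 genes tested, since Ndufb4 stands on 9 rows with identical values and was counted once. Of the 94 genes, 83 are nuclear-encoded (38 of complex I, 4 of complex II, 8 of complex III, 15 of complex IV and 18 of complex V) and 11 are mitochondrially encoded (6 of complex I, 1 of complex III, 3 of complex IV and 1 of complex V). Grouping is by symbol, so Ndufa4, whose product is now counted with complex IV, stands under complex I. Atp5l2-ps, Ndufb1-ps and Cox7a2l match the pattern but were set apart as not naming a true subunit, and 80 nuclear-encoded genes remain without them. For Ndufb1-ps this is uncertain: the annotation used here lists it as non-coding, but it had 934 to 1787 reads per library. Ndufa4l2, a gene related to Ndufa4, was kept among the 80. mt-Nd4l and mt-Atp8 also fit the pattern but have no row among the 19431, so no level is given for them.

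Tumours came from 8 mice. The 4 libraries called control 1 to 4 come from tumours labelled as controls, and the labels do not say what those mice were given. The 4 libraries called MEKi 1 to 4 come from tumours of mice given trametinib, which blocks the ERK-activating kinases MEK1 and MEK2, for 7 days. The labels name no strain, age or tumour genotype for either set. The series' title names macrophages in pancreatic cancer under MAP kinase inhibition, so the subunit genes are not the question the study was built on.

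In the inner mitochondrial membrane, complexes I and II take electrons from NADH and succinate and pass them through ubiquinone to complex III, cytochrome c and complex IV, which reduces oxygen. Complexes I, III and IV pump protons, and complex V, the ATP synthase, uses the gradient to make ATP. Complex II is encoded by nuclear genes alone, while the other complexes join nuclear-encoded subunits to a few made inside the mitochondrion from its own genome, so the 2 genomes must supply parts of the same machines.

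Values are variance-stabilised log2 expression, where 1 unit is about a doubling if a gene has many reads and more if it has few, and 5.12 stands for 0 reads in every library. Whole reads could be recovered from these values, and levels that compare genes are given as reads per kilobase of exon, scaled to the reads in tested genes (RPKM). Exon length counts all annotated exons of a gene, also those outside its main message. It can therefore exceed the length of the message, by unlike amounts between genes, and rankings by RPKM depend on it. Libraries held 20090101 to 38569550 reads in tested genes. Markers of ductal or tumour epithelium, the labelled tissue's tumour cells, averaged 12.55 to 12.71 in the control libraries and 12.03 to 12.75 in the MEKi libraries, with MEKi 4 lowest. The acinar list, which marks normal pancreas, averaged 8.42 to 16.69 in control and 5.83 to 11.23 in MEKi, with controls 2 and 3 at 15.11 and 16.69 and MEKi 3 at 5.83. In bulk tissue, fewer cells of a type and less RNA per cell cannot be told apart.

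No subunit gene passed the test between MEKi and control. With limma and Benjamini-Hochberg adjustment over all genes, 1 of 19129 genes was called (0.00523%) and 0 of 94 subunit genes, and the adjusted p of every subunit gene was 1. At an unadjusted limma p under 0.05 there were 338 genes (1.77%) and again 0 subunit genes. The MEKi libraries were all lower than every control library for 134 genes (0.701%) and all higher for 108 genes (0.565%), and for 0 subunit genes in either direction. Limma's voom on the recovered reads, scaled by total reads, also called 0 subunit genes (smallest adjusted p 0.882), with 1 at an unadjusted p under 0.05. Over the other alternatives the smallest adjusted p of a subunit gene was between 0.984 and 1. At an unadjusted limma p under 0.05 these alternatives had 0 to 5 subunit genes. The count was 5 of 94 with the acinar mean as covariate, beside 271 of all genes. It was also 5 without MEKi 1, beside 676 of all genes. A missed threshold does not show that the levels were alike, and the intervals given below show which differences the data allow.

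The mitochondrially encoded genes split into 2 sets by level. In RPKM, mt-Co1, the catalytic core of complex IV, stood at a mean of 9880 over the 8 libraries. mt-Cytb, the cytochrome b of complex III, averaged 4980. Among the complex I genes of the membrane arm, mt-Nd1 averaged 3930, mt-Nd2 2040, mt-Nd5 1300, mt-Nd4 1140 and mt-Nd6 895. The remaining 4 genes stood far below these: mt-Co2 averaged 2.99, mt-Co3 2.32, mt-Atp6 1.42 and mt-Nd3 1.38. For comparison, Cox6b1, the most abundant nuclear-encoded subunit gene by this measure, averaged 273. The mitochondrial genome is read as long transcripts that are cut into the single messages. In it mt-Co2, mt-Atp6, mt-Co3 and mt-Nd3 lie in this order between mt-Co1 and mt-Nd4, on the same strand. The genes without a row lie in the same region, mt-Atp8 between mt-Co2 and mt-Atp6 and mt-Nd4l between mt-Nd3 and mt-Nd4.

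The 4 low genes each have a copy in the nuclear genome that spans nearly the whole gene at 99.71% identity or more. In the GRCm38 reference, GENCODE annotates pseudogenes of them on chromosome 1, all on the minus strand: Gm28661 matches 681 bases of mt-Co2 (chr1:24614885-24615565), Gm10925 matches 678 bases of mt-Atp6 (chr1:24613974-24614651) and Gm28437 matches 783 bases of mt-Co3 (chr1:24613189-24613971), each at 100% identity. Gm28438 matches 345 bases of mt-Nd3 (chr1:24612775-24613119) at 99.71%. The first bases of mt-Nd3 (chrM:9459-9728, plus strand) and of Gm28438 (chr1:24612850-24613119, minus strand), taken from the GENCODE transcripts, are shown to let the near identity be seen; the capital letter marks the only base that differs, T3C, counted from 1 at the start of mt-Nd3.
mt-Nd3: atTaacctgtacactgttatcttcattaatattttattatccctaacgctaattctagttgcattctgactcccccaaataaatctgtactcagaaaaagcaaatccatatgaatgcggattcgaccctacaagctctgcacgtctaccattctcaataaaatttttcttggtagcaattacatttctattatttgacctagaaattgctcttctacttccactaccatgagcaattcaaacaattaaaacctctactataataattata
Gm28438: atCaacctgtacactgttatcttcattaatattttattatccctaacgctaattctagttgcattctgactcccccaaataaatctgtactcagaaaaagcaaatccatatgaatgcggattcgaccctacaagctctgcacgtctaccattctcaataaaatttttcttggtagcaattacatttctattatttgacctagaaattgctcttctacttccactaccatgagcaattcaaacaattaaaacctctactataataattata

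Every 50-base stretch of each gene was looked up in the annotated pseudogene transcripts. All stretches of mt-Co2 were found (100%), as were 99.864% for mt-Co3, 99.525% for mt-Atp6 and 97.993% for mt-Nd3. Of the mitochondrial genes without a row, the share was 98.79% for mt-Nd4l and 0% for mt-Atp8. Why they have no row was not tested. Among the abundant genes the share was 62.227% for mt-Nd4, 51.136% for mt-Co1, 8.19% for mt-Nd2, 7.606% for mt-Nd5 and 0% for mt-Nd1, mt-Nd6 and mt-Cytb. Close copies of these exist too: Gm13340 matches all 1545 bases of mt-Co1 at 97.6%, and Gm28439, in the same stretch of chromosome 1, matches 876 of the 1378 bases of mt-Nd4 at 100%. No source used here says how reads that fit several places were counted, and the part of shared sequence in the low values was not tested. The levels of mt-Co2, mt-Co3, mt-Atp6 and mt-Nd3 are therefore uncertain.

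**Figure D1:**
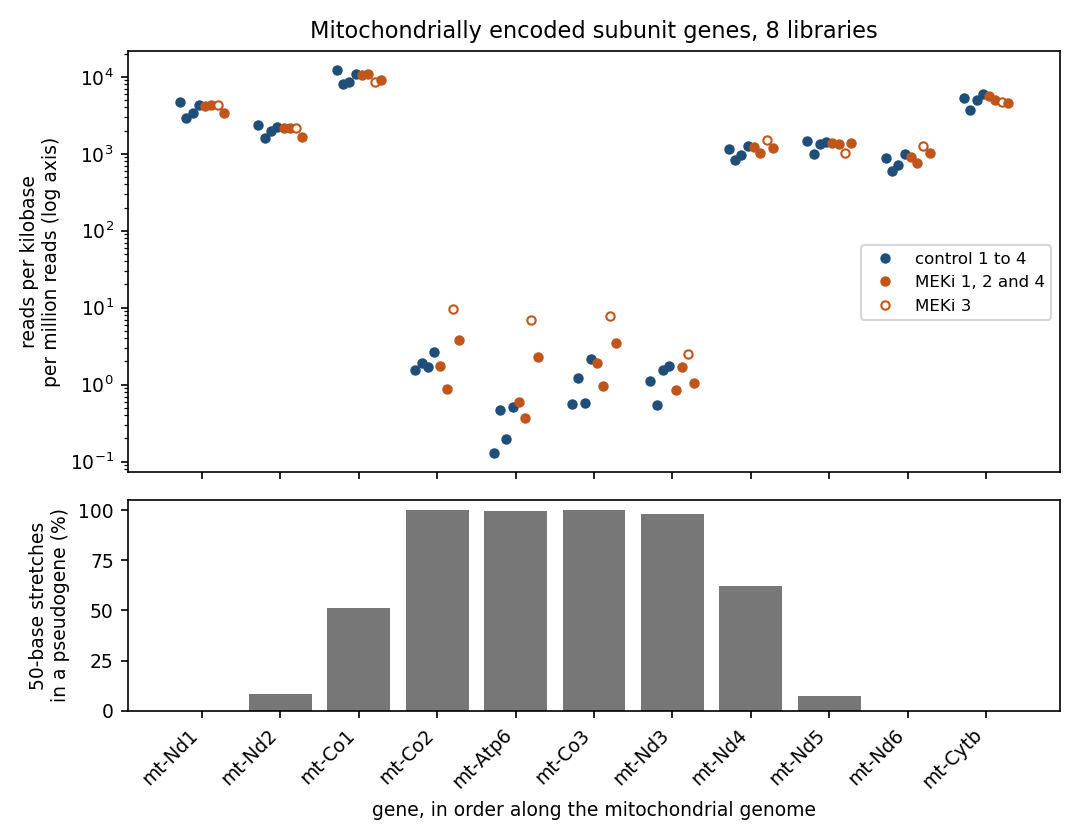
Upper panel: level of the 11 mitochondrially encoded subunit genes in RPKM (log axis), 1 point per library, control in blue, MEKi in orange, MEKi 3 as open circles. Lower panel: percent of a gene's 50-base stretches found in an annotated pseudogene. The 4 genes with shares of 97.993% or more average 1.38 to 2.99, and the other 7 average 895 to 9880.

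In reads, the 4 low genes rest on small numbers in most libraries and on larger ones in MEKi 3 and MEKi 4. mt-Atp6, the channel subunit of complex V, had 2, 10, 3 and 7 reads in control 1 to 4 and 11, 5, 139 and 59 reads in MEKi 1 to 4. mt-Co3, a complex IV core subunit, had 10, 30, 10 and 34 reads in control and 40, 15, 181 and 106 in MEKi. mt-Co2, which binds cytochrome c, had 24, 42, 26 and 36 reads in control and 32, 12, 199 and 100 in MEKi. MEKi 3 was highest and MEKi 4 next for these 3 genes, while MEKi 1 and MEKi 2 lay within or near the control range. mt-Nd3, a small complex I subunit, had 9, 6, 12 and 12 reads in control and 8, 12, 26 and 14 in MEKi, so the same library was highest with fewer reads. The log2 difference of MEKi from control was 0.72 for mt-Atp6 (SE 0.33, 95% interval -0.02 to 1.47, limma adjusted p = 1). It was 0.64 for mt-Co3 (SE 0.31, interval -0.06 to 1.34), 0.29 for mt-Co2 (SE 0.33, interval -0.44 to 1.03) and 0.05 for mt-Nd3 (SE 0.14, interval -0.26 to 0.37). Without MEKi 3 the differences were 0.37 for mt-Atp6, 0.35 for mt-Co3, -0.05 for mt-Co2 and -0.03 for mt-Nd3. The variance-stabilised scale compresses genes with so few reads: voom on the recovered reads gave log2 differences of 2.28 for mt-Atp6, 1.53 for mt-Co3, 0.62 for mt-Co2 and 0.32 for mt-Nd3, and with size factors 2.17, 1.40, 0.52 and 0.21. None of these passed the test.

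The rows of the chromosome 1 copies were high in the same library. On the log2 scale Gm28661 was at 6.39 to 6.74 in control and at 6.54, 6.55, 7.88 and 6.84 in MEKi 1 to 4. Gm10925 was at 6.57 to 7.08 in control and at 6.58, 6.57, 7.43 and 6.85 in MEKi. Gm28437 was at 6.59 to 6.81 in control and at 6.40, 6.69, 7.49 and 6.81 in MEKi. Each of these 3 copies was highest in MEKi 3, while Gm28438 was highest in control 1 (6.41). MEKi 3 also stood highest for erythroid markers (11.08 against 6.97 to 9.29 in the other libraries) and lowest for acinar markers, and the part of either in these values was not tested.

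For the 7 abundant mitochondrially encoded genes every interval of the difference between the labels spanned 0. mt-Co1 was at 18.89, 18.40, 18.64 and 18.63 in control 1 to 4 and at 18.64, 18.73, 18.29 and 18.39 in MEKi 1 to 4 (difference -0.13, SE 0.25, interval -0.70 to 0.44). mt-Cytb was at 17.25, 16.81, 17.42 and 17.34 in control and at 17.28, 17.16, 17.01 and 16.96 in MEKi (difference -0.10, SE 0.20, interval -0.55 to 0.35). mt-Nd1 was at 16.82, 16.24, 16.57 and 16.59 in control and at 16.59, 16.68, 16.62 and 16.29 in MEKi (difference -0.01, SE 0.18, interval -0.42 to 0.40). In all 3 genes the labels overlapped, and control 2 lay below the other controls. For the complex I genes mt-Nd2, mt-Nd4, mt-Nd5 and mt-Nd6 the differences were -0.10, 0.12, -0.11 and 0.19. Control 2 was the lowest library for 4 of the 7 genes and control 1 the highest for 3. mt-Nd6 is the one subunit gene on the other strand of the mitochondrial genome. It was highest in MEKi 3 (13.97, against 13.05 to 13.63 in control), where mt-Nd4 was also highest (15.63) and mt-Nd5 and mt-Co1 lowest (15.49 and 18.29). By sign, 5 of the 7 were lower in MEKi, with a median difference of -0.10; the 4 low genes were all higher in sign, with a median of 0.46. With quantile normalization the median over all 11 became 0.43 in place of 0.05, and mt-Nd1, mt-Nd2, mt-Nd5, mt-Cytb and mt-Co1 turned positive (0.28 to 0.57).

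Most nuclear-encoded subunit genes were lower in MEKi by sign, by a small amount that shrank without MEKi 4. Of 83 genes, 68 had a negative difference and 15 a positive one, with a median of -0.10; over all genes tested, 48.4% were negative and the median was 0.006. The split around 0 depended on the scaling. With voom scaled by total reads it was 43 against 40, with a median of -0.01, while the median of all genes moved to 0.121. With voom scaled by size factors it was 68 against 15, with a median of -0.12, and of 0.007 over all genes. Under both scalings the median of the members lay below that of all genes. Without MEKi 4 the split in the limma fit was 55 against 28, with a median of -0.04. Without MEKi 3 alone it was 71 against 12, with a median of -0.09. Without MEKi 3 and MEKi 4 together it was 35 against 48, with a median of 0.01. Other settings widened it. With the acinar mean as covariate the split was 71 against 12, with a median of -0.15. Without MEKi 1 it was 70 against 13, with a median of -0.17. No gene of the 83 passed the test under any of these. By complex, the count of negative differences and the median were 33 of 38 and -0.10 for complex I, 2 of 4 and -0.02 for complex II, 6 of 8 and -0.11 for complex III, 13 of 15 and -0.12 for complex IV and 14 of 18 and -0.11 for complex V. No complex was tested against another.

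**Figure D2:**
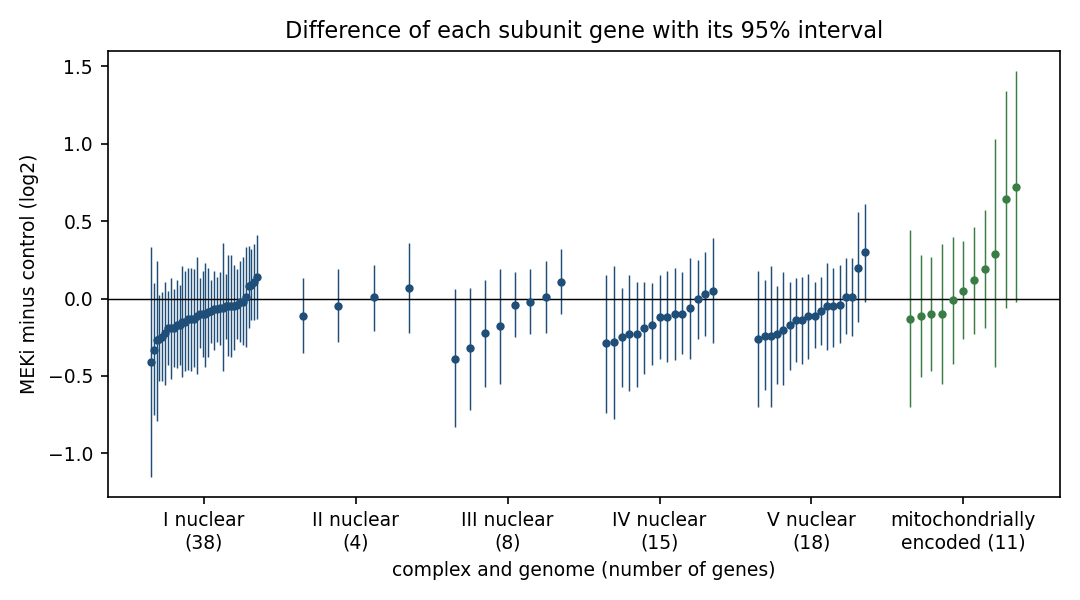
MEKi minus control on the variance-stabilised log2 scale for each of the 94 subunit genes (points) with 95% limma intervals (bars), sorted within each complex; nuclear-encoded genes are in blue and the mitochondrially encoded genes in green, and the number of genes is in brackets. Point estimates of the nuclear-encoded genes run from -0.41 to 0.30 and those of the mitochondrially encoded genes from -0.13 to 0.72.

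Complex I, the NADH dehydrogenase, holds the largest group. The genes with the smallest p were Ndufc2, Ndufb8 and Ndufa6, accessory subunits that surround the catalytic core. Ndufc2 (chr7:97400003-97407802, plus strand) was at 10.38, 10.20, 10.37 and 10.40 in control 1 to 4 and at 10.09, 10.29, 10.17 and 9.78 in MEKi 1 to 4. MEKi 4 was lowest, MEKi 2 lay inside the control range, and the difference was -0.26 (SE 0.12, 95% interval -0.53 to 0.02, limma adjusted p = 1). Ndufb8 differed by -0.25 (SE 0.13, interval -0.53 to 0.04) and Ndufa6 by -0.19 (SE 0.11, interval -0.43 to 0.05). Ndufa2, the most abundant nuclear complex I gene per length (136 RPKM), was at 11.02, 11.11, 10.94 and 11.39 in control and at 11.18, 11.19, 10.90 and 10.10 in MEKi. Its difference of -0.27 (SE 0.23, interval -0.79 to 0.24) rested on MEKi 4, and was 0.07 without MEKi 3 and MEKi 4. Ndufa13 averaged 84.5 RPKM and differed by -0.15 (SE 0.14). Ndufb2 was the least abundant by this measure, at 2.55 RPKM over 5628 exon bases, and differed by -0.11 (SE 0.17).

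Ndufv1 and Ndufs1 belong to the catalytic core of complex I and were named after their values were seen. Ndufv1, which binds NADH, was at 10.96 to 11.39 in control and at 11.17 to 11.41 in MEKi (difference 0.11, SE 0.11). Ndufs1, the largest core subunit, was at 10.95 to 11.12 in control and at 10.86 to 11.08 in MEKi (difference -0.08, SE 0.09). The labels overlapped for both genes.

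Complex II, succinate dehydrogenase, also works in the tricarboxylic acid cycle. Sdha, its flavoprotein, was at 12.08, 12.27, 12.29 and 12.40 in control 1 to 4 and at 12.35, 12.15, 12.17 and 12.65 in MEKi 1 to 4, with MEKi 4 highest of all (difference 0.07, SE 0.13, interval -0.22 to 0.36). Sdhb, the iron-sulphur subunit, was at 10.87, 11.08, 11.01 and 11.11 in control and at 11.11, 10.93, 10.88 and 10.70 in MEKi, with MEKi 4 lowest (difference -0.11, SE 0.11, interval -0.35 to 0.13). The membrane anchors Sdhc and Sdhd differed by -0.05 (SE 0.10) and 0.01 (SE 0.10). Per length, Sdhd stood at 102 RPKM, Sdha at 47.0, Sdhb at 33.5 and Sdhc at 28.4.

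In complex III, the cytochrome bc1 complex, the genes with the smallest p encode small subunits. Uqcrh, the hinge protein (chr4:116066965-116075071, minus strand), was at 12.57, 12.36, 12.46 and 12.64 in control 1 to 4 and at 12.44, 12.52, 12.09 and 11.69 in MEKi 1 to 4. MEKi 1 and MEKi 2 lay inside the control range and MEKi 3 and MEKi 4 below it (difference -0.32, SE 0.17, 95% interval -0.72 to 0.07, limma adjusted p = 1). Uqcrq, a small membrane subunit, was at 10.06, 10.52, 10.58 and 10.37 in control and at 10.45, 10.04, 10.02 and 9.48 in MEKi (difference -0.39, SE 0.20, interval -0.83 to 0.06). Uqcr11 and Uqcr10, the smallest subunits, differed by -0.22 (SE 0.15) and -0.18 (SE 0.16). Over the 5 small subunits the median difference was -0.22, and the median of MEKi 4 minus the mean of the other 7 libraries was -0.64; Uqcrb, also small, was an exception at -0.06. For Uqcrc1, Uqcrc2 and the iron-sulphur protein Uqcrfs1 these medians were -0.02 and 0.00. The grouping was made with the values known and was not tested, and the median exon lengths were 876 and 2552 bases.

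In complex IV, cytochrome c oxidase, nuclear-encoded subunits surround the catalytic core. Cox6b1, which faces the intermembrane space (chr7:30616861-30626151, minus strand), was at 12.36, 12.35, 12.27 and 12.59 in control 1 to 4 and at 12.55, 12.33, 12.08 and 11.71 in MEKi 1 to 4 (difference -0.23, SE 0.17, interval -0.60 to 0.15). Cox5b was at 11.14, 10.94, 11.10 and 11.21 in control and at 10.97, 11.00, 11.00 and 10.41 in MEKi, so that MEKi 4 stood apart from 3 MEKi libraries inside the control range (difference -0.25, SE 0.14, interval -0.57 to 0.07). Cox7a2 differed by -0.23 (SE 0.15) and Cox5a by -0.29 (SE 0.20). Cox8a, at 196 RPKM, differed by -0.12 (SE 0.12). Cox4i1, the regulatory subunit, was at 11.63 to 11.80 in control and at 11.67, 11.64, 12.11 and 11.61 in MEKi, with MEKi 3 highest (difference 0.03, SE 0.12).

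Several complex IV subunits exist in a common form and in a form typical of other tissues. Per length, Cox4i1 exceeded the lung form Cox4i2 by 35.8 to 104 times over the 8 libraries (median 57.0). Cox6b1 exceeded the testis form Cox6b2 by 86.3 to 566 times (median 173). Cox7a2 exceeded Cox7a1, the form of heart and muscle, by 25.3 to 39.7 times (median 36.9). Cox6a1 exceeded the muscle form Cox6a2 by 147 to 1880 times (median 422), with Cox6a2 averaging only 0.316 RPKM. The common form was the higher one in every library for each of these pairs, and skeletal muscle markers averaged only 6.40 to 6.65. Cox8b also fits the symbol pattern but has no row, so Cox8a was not set against it. Ndufa4 exceeded Ndufa4l2, a related gene known to be induced by low oxygen and expressed in pericytes, by 4.21 to 21.8 times (median 10.5). Ndufa4l2 had the most negative difference of the nuclear-encoded genes. It was at 8.75, 9.21, 8.46 and 7.92 in control and at 8.41, 8.81, 7.48 and 7.98 in MEKi (difference -0.41, SE 0.33, interval -1.15 to 0.33), and the difference was 0.03 without MEKi 3 and MEKi 4. Pericyte and smooth muscle markers averaged 9.36 to 9.89 in control and 9.28 to 10.11 in MEKi, and their part in Ndufa4l2 was not tested.

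In complex V a rotor that includes a ring in the membrane turns inside the catalytic head. Atp5b, the catalytic beta subunit (chr10:128083273-128090391, plus strand), was at 14.13, 14.20, 14.25 and 14.26 in control 1 to 4 and at 14.28, 14.08, 14.07 and 14.10 in MEKi 1 to 4. MEKi 1 was the highest of all 8 libraries and the other 3 MEKi libraries lay below the controls (difference -0.08, SE 0.10, interval -0.30 to 0.14). Atp5a1, the alpha subunit, was at 14.07 to 14.24 in control and at 14.25, 14.08, 13.99 and 13.75 in MEKi (difference -0.14, SE 0.12). The 3 genes for the same ring protein, Atp5g1, Atp5g2 and Atp5g3, differed by -0.20 (SE 0.16), -0.14 (SE 0.12) and -0.04 (SE 0.11). Per length Atp5g3 was the highest of them at 74.9, with Atp5g2 at 49.0 and Atp5g1 at 21.1 RPKM. Atp5e, the small epsilon subunit of the head, and Atp5mpl, a small membrane protein, differed by -0.24 (SE 0.16) and -0.23 (SE 0.14), and Atp5h, of the stator stalk, by -0.17 (SE 0.13). Atp5l2-ps, a pseudogene near the floor (5.12 to 5.99), had the most positive difference, 0.30 (SE 0.14, limma adjusted p = 1). Of its 50-base stretches, 73.384% occur in other annotated pseudogenes, so its reads are uncertain.

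**Figure D3:**
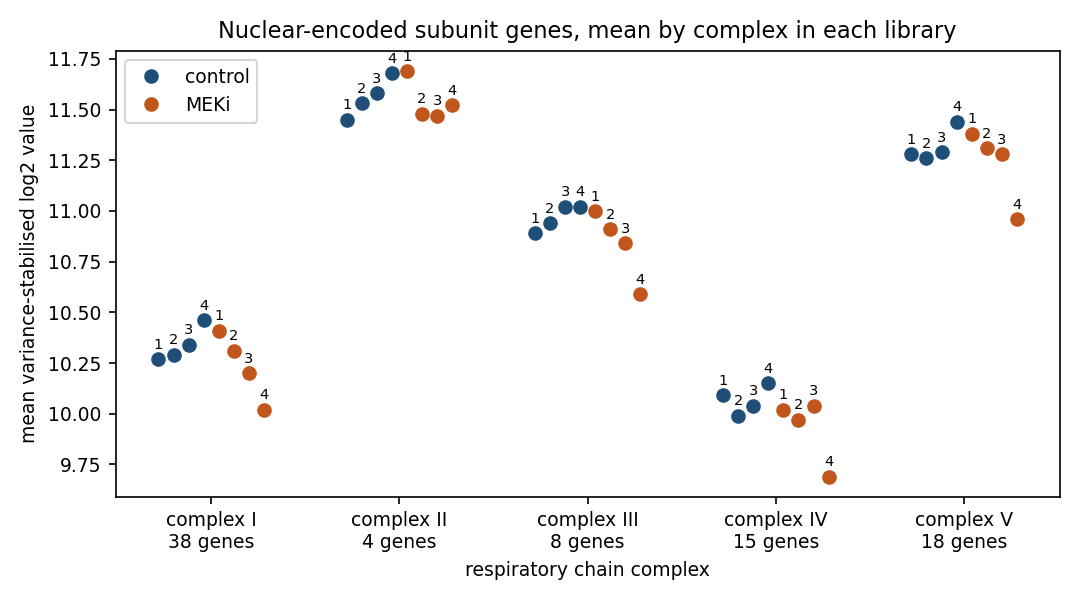
Mean variance-stabilised log2 value of the nuclear-encoded subunit genes of each complex, 1 point per library, control in blue and MEKi in orange, with the replicate number above each point. MEKi 4 is the lowest library in complexes I, III, IV and V (10.02, 10.59, 9.69 and 10.96), and in complex II it lies inside the range of the others (11.52).

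MEKi 4 stood apart from the other MEKi libraries. It was the lowest of the 8 libraries for 57 of 83 nuclear-encoded genes (68.7%), while over all genes it was lowest for 21.6%. The median of MEKi 4 minus the mean of the other 7 was -0.33 for the 83 genes and -0.002 for all genes, and 72 of the 83 were below. The widest gaps were -1.0 for Ndufa2, -0.86 for Atp5j2, -0.81 for Atp5k and for Uqcrq, -0.76 for Ndufb3 and -0.75 for Uqcrh. Genes that were instead higher in MEKi 4 included Sdha (0.41), Ndufb5 (0.25), Ndufv2 (0.15) and Uqcrc2 (0.14). Control 4 was the highest library for 39 of the 83 genes and MEKi 1 for 13, and these 2 libraries, of different labels, were the closest pair of all 8 over the whole table (median squared deviation 4.41 times sampling noise). Control 1 and MEKi 2, again of different labels, came next at 5.1. The closest pair within a label was control 1 and control 2 at 10.44. A shared source of any pair was not tested. The genes in this paragraph were named after their values were seen.

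Exon length moved with the position of MEKi 4. All genes but those lowest by mean value were put into 4 classes of equal size by exon length. The median of MEKi 4 minus the other 7 was -0.10, -0.04, 0.03 and 0.13 from the shortest to the longest class. The nuclear-encoded subunit genes are mostly short, with 60, 15, 5 and 1 of them in these classes, and their medians were -0.35, -0.27, -0.14 and -0.13. In each class the members lay below the median of all genes. Across the 81 members above that level, exon length on a log scale and the gap of MEKi 4 had a Pearson correlation of 0.33 and a Spearman correlation of 0.31; this is across genes of the same libraries, which are not independent, and is given as a description. With a smooth length trend removed from each library the nuclear-encoded genes' median difference of MEKi from control was -0.09, against -0.10 in the reported fit. The gap of MEKi 4 itself was not computed with that trend removed. MEKi 4 also had the lowest mean of ductal or tumour epithelial markers (12.03) and the deepest library, and the part of these in its low values was not tested.

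**Figure D4:**
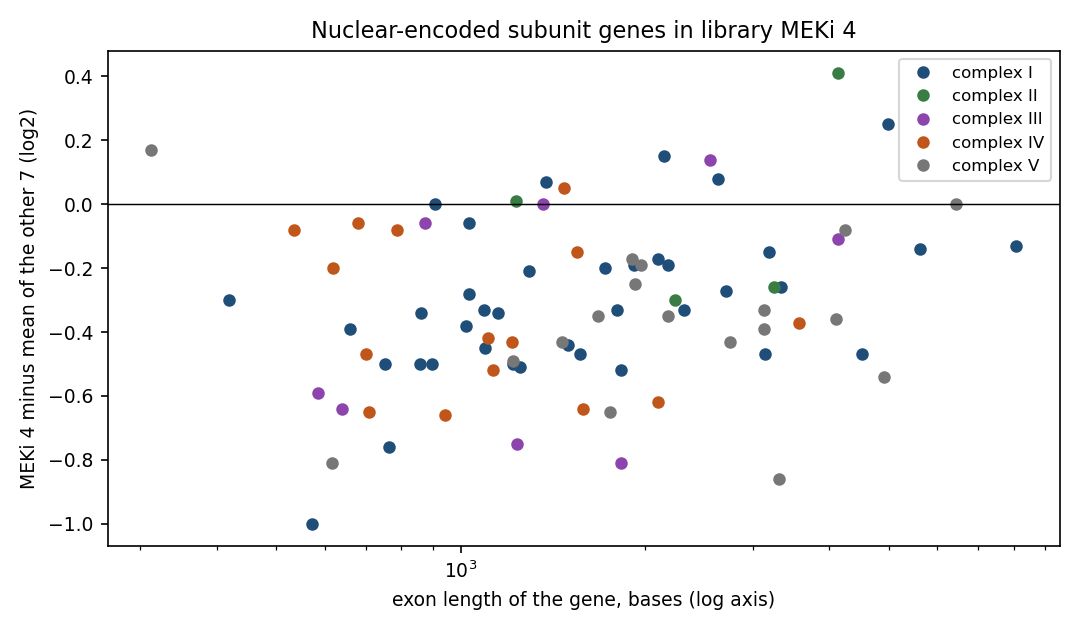
MEKi 4 minus the mean of the other 7 libraries (log2) against exon length in bases (log axis) for the 83 nuclear-encoded subunit genes, coloured by complex. Most points lie below 0 (72 of 83), the lowest is Ndufa2 at -1.0 with 572 bases, Atp5j2 stands at -0.86 with 3306 bases, and Sdha is highest at 0.41.

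The balance between the 2 genomes was measured as shares of reads and as a difference of mean levels. The 11 mitochondrially encoded genes took 3.68%, 2.46%, 2.85% and 3.48% of the reads in control 1 to 4 and 3.40%, 3.32%, 2.95% and 2.88% in MEKi 1 to 4. The means were 3.118% (SD 0.5632, n = 4) and 3.138% (SD 0.2606, n = 4), so MEKi minus control was 0.02 percentage points, less than either SD. This small difference had no stable sign: it was 0.208 without control 1 and -0.199 without control 2, the ends of its range with each library left out. The 83 nuclear-encoded genes took 0.7662% (SD 0.1087, n = 4) and 0.7672% (SD 0.07925, n = 4). Reads of the mitochondrial set per read of the nuclear set averaged 4.077 (3.42 to 4.78) in control and 4.098 (3.82 to 4.32) in MEKi, and the ranges overlapped. On the log2 scale the mean of the 83 nuclear genes minus the mean of all 11 mitochondrial genes was -1.92, -1.69, -1.91 and -1.85 in control 1 to 4 and -1.85, -1.86, -2.38 and -2.28 in MEKi 1 to 4. The means were -1.842 (SD 0.1063, n = 4) and -2.092 (SD 0.2773, n = 4), a difference of -0.25 that is larger than the control SD and smaller than the MEKi SD. MEKi 3 and MEKi 4 lay below every control, MEKi 1 and MEKi 2 inside the control range, and the difference was not tested. With the 7 abundant mitochondrial genes alone, a choice made after seeing the data, the means were -5.49 in control (SD 0.2017) and -5.575 in MEKi (SD 0.0911), a difference smaller than either SD. The lowest and highest shares both came from control libraries, control 2 and control 1. A share of reads is unaffected by the normalization but moves with every other gene in the library, among them the acinar genes that were high in control 2 and control 3.

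The 2 sets also differed in how libraries ranked. For the nuclear-encoded genes MEKi 4 was lowest most often and control 2 was lowest for 8 of 83. For the 7 abundant mitochondrial genes control 2 was lowest for 4, MEKi 3 for 2 and MEKi 4 for 1. The mean of these 7 genes was 16.26, 15.79, 16.22 and 16.19 in control 1 to 4 and 16.16, 16.12, 16.11 and 15.99 in MEKi 1 to 4. Ribosomal RNAs of the mitochondrion are made from the same genome, and mt-Rnr1 was at 13.54, 13.15, 12.87 and 12.88 in control and at 12.86, 13.39, 13.25 and 12.18 in MEKi, again with MEKi 4 lowest. Together mt-Rnr1 and mt-Rnr2 took only 0.0525% to 0.101% of reads in control and 0.0399% to 0.0916% in MEKi. mt-Co1 alone took 1.26% to 1.9% and 1.31% to 1.69%. What set the small share of the ribosomal RNAs was not tested, so their levels are uncertain.

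Among the nuclear-encoded members, promoter sequence was available from RefSeq (GRCm38.p6) for 66 of 83, with 1 window of fixed length around the start of each gene. Motifs were searched on both strands. GCGCNTGCGC, a site of the factor NRF1 that is known to bind many respiratory chain genes, was in 25.758% of the members' windows and in 4.784% of all 27025. CCGGAAG, the core of ETS factor sites such as those of GABPA, was in 25.758% against 9.121%. ATGGCGG, a site of YY1, was in 15.152% against 4.189%, CCAAT in 43.939% against 37.92% and TATAAA in 9.091% against 14.161%. These shares describe the windows and were not tested. The windows of Atp5h, Atp5k, Cox6a1 and Sdhd each hold both an NRF1 match and an ETS match. Printed as examples, with the matches in capitals, are Cox6a1 (chr5:115348909-115349208, minus strand), with 2 NRF1 matches, and Sdhd (chr9:50603800-50604099, minus strand). Neither gene passed the test, with differences of MEKi from control of -0.17 (SE 0.12, interval -0.43 to 0.10) for Cox6a1 and 0.01 (SE 0.10, interval -0.21 to 0.22) for Sdhd.
Cox6a1: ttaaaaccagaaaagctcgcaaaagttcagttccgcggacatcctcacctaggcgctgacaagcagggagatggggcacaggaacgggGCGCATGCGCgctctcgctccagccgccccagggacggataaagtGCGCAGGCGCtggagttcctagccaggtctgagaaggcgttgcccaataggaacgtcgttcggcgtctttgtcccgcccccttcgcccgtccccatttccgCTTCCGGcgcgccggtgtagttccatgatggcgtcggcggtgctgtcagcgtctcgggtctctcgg
Sdhd: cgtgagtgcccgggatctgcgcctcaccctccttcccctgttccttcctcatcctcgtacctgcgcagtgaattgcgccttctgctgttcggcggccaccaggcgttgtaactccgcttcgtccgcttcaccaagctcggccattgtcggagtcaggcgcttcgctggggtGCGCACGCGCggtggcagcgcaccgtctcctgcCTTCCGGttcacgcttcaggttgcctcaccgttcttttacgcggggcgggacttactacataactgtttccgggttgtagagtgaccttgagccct

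Genes that serve the same machinery outside the symbol pattern were counted from fixed lists, with 0 genes called by limma and 0 at an unadjusted p under 0.05 in each. Of 12 electron carriers and related subunits, 5 were lower and 7 higher in sign (median 0.00). Cyc1, the cytochrome c1 of complex III, and Ndufab1, the acyl carrier of complex I, differed by 0.00 and -0.02. Gpd2 had the smallest limma p of this list, with a difference of 0.13 (SE 0.09). It was at 11.42 to 11.59 in control and at 11.57, 11.59, 11.50 and 11.77 in MEKi, with MEKi 4 highest. Cycs, cytochrome c, was next by p. Cycs was at 11.12 to 11.35 in control and at 11.51, 11.17, 11.02 and 10.25 in MEKi, with MEKi 4 lowest (difference -0.23, SE 0.23). Of 43 measured assembly factors out of 46, which build the complexes, 20 were lower and 23 higher (median 0.02). Sdhaf4 had the smallest limma p of them, at 7.49 to 7.94 in control and at 8.02, 8.10, 8.18 and 7.95 in MEKi (difference 0.29, SE 0.14). Next was Pet100, a complex IV assembly factor. Pet100 was at 8.83 to 8.98 in control and at 8.81, 8.83, 8.58 and 8.04 in MEKi (difference -0.33, SE 0.18).

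The genes that keep and read mitochondrial DNA were lower in 13 and higher in 11 of 24 (median -0.01). Among them Mterf1a was at 9.07 to 9.33 in control and at 9.17, 9.21, 8.40 and 7.93 in MEKi (difference -0.52, SE 0.27). Tfb1m differed by -0.29 (SE 0.18). The regulators of mitochondrial biogenesis were lower in 3 and higher in 7 of 10 (median 0.05). Esrra, a nuclear receptor that drives respiratory genes, differed by 0.18 (SE 0.14) and Perm1 by 0.13 (SE 0.14). The tricarboxylic acid cycle enzymes were lower in 7 and higher in 10 of 17 (median 0.02). Suclg2 and Idh3b had the smallest p and differed by -0.13 (SE 0.13) and -0.09 (SE 0.09). Of 78 mitochondrial ribosomal protein genes, 53 were lower and 25 higher (median -0.04), and their mean was lowest in MEKi 4 (9.41 against 9.58 to 9.69 in the other libraries). Mrpl27 and Mrpl23 had the smallest p and differed by 0.26 (SE 0.13) and -0.22 (SE 0.11). The 3 mitochondrial ribosomal and transfer RNA genes were all lower in sign (median -0.19), with the limit given above for the ribosomal RNAs. Of these, mt-Tp differed by -0.38 (SE 0.19) and mt-Rnr1 by -0.19 (SE 0.26). Like the subunit genes, none of these lists had a member that passed the test.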

How the data were processed

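Total RNA of tumour isografts from 8 mice, 4 per label, was sequenced. Per the labels' protocols, RNA was taken with TRIzol and columns, an integrity number above 7.5 was required, and stranded total RNA libraries were run on a HiSeq2000. The submitters' processing notes list GRCm38, DESeq2 1.18.1 and STAR 2.5.3a; the annotation, counting step, filter and read length are named in no source used here. The authors deposited log2 values, variance-stabilised as its name and values show, with a floor of 5.12. Inverting the transformation gave whole reads for 100% of values (within 0.01), from which levels per length were computed.

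Of 19431 rows, 32 name no gene (0.101% to 0.167% of reads) and were left out, and where a symbol had several rows (86 symbols) only its highest row by mean was used. The 19129 genes, each with at least 25 reads in all, were compared in limma 3.58.1 under R 4.3.3 (lmFit, eBayes with a trend, no covariate, two-sided, Benjamini-Hochberg over all genes, threshold 0.05); the script was tested on simulated data. No batch or date is given. Libraries of equal number were checked for pairing. Positions, exon lengths and transcripts are from GENCODE (GRCm38), counted from 1, in which 94 of 94 members were found. Figures were drawn with matplotlib 3.10.9.

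Named genes are every mitochondrially encoded and complex II member, and in each other complex the 3 nuclear-encoded genes highest per length, the lowest one and the 3 with the smallest p, tissue-form pairs, and for each list the genes with the smallest p; others are named with the words that their values had been seen or as members of a described group. The members, lists and rules were chosen with earlier results of these data known. The alternatives tried were quantile normalization, library medians aligned, moderation made robust or without a trend, only the top 75% of genes by mean, no rows collapsed, array weights, voom on recovered reads, the acinar mean as covariate, the replicate block, each library left out, and summaries over other members. Added after seeing the data were a length trend removed, both MEKi 3 and MEKi 4 left out, voom scaled by size factors, and the 7 abundant mitochondrial genes alone. A result on a group of complex I genes is not reported here.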

Additional observations from a re-analysis of the deposited data

Results flagged for a closer look

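Each label was looked at for a library standing apart from the other 3, by the gap to its nearest neighbour over the range of the group (Dixon's 95% limit for 4 values). Of 110 groups looked at, over named genes and summary measures, 12 had such a library; chance flags about 1 in 20 groups. Values are on the variance-stabilised log2 scale, and causes were not tested.

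Control 2 was low for mt-Nd4 (14.94), for the mean of the 7 abundant mitochondrial genes (15.79) and for Ndufc2 (10.20). Control 1 was low for Uqcr11 (10.38) and for Cox6a2 (5.37). Control 3 was low for Atp5g2 (10.98) and for Atp5l2-ps (5.12, which is 0 reads). Control 4 was high for Atp5h (12.73). MEKi 1 was high for Atp5b (14.28). MEKi 3 was low for mt-Nd5 (15.49) and high for Cox4i1 (12.11). MEKi 4 was low for Cox5b (10.41).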

How the results depend on the processing

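No subunit gene was called under any alternative, and the nuclear median stayed between -0.17 and 0.01, within 1 SD of the libraries. Genes called over the whole table were 1 in the reported fit, 0 with the 75% of genes highest by mean, with the acinar covariate, with the replicate block and without MEKi 3 and MEKi 4, and 0 to 2 with a library left out. The mitochondrial median was 0.43 with quantile normalization. Same-numbered libraries did not deviate together (correlations -0.384, 0.227, -0.526 and 0.00986, with 1 of 4 controls correlated best with its own number). With the replicate block the nuclear median stayed at -0.10. Neither the check nor the block can see pairs of unequal number. The closest pairs, control 4 with MEKi 1 and control 1 with MEKi 2, were of that kind, and such pairing was not tested. The planned voom fit used total reads as library sizes, which moves the median of all genes by 0.121; a second fit scaled by the size factors recovered from the table was chosen after seeing that result and gave a nuclear median of -0.12.

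Of 1004 values of named genes under alternatives, 77 changed sign, 25 of them with a library left out, and none was called; the causes were not tested. With voom on total reads these were mt-Nd1 0.10, mt-Nd2 0.01, Ndufa4 0.07, Ndufb2 0.03, Sdhc 0.06, mt-Cytb 0.01, Cox7a2l 0.11, Atp5b 0.03 and Atp5g3 0.07. With quantile normalization they were mt-Nd1 0.57, mt-Nd2 0.35, mt-Nd5 0.28, Sdhd -0.02, mt-Cytb 0.53, mt-Co1 0.43 and Atp5b 0.05. With aligned medians they were mt-Nd1 0.02 and Cox7a2l 0.02, with array weights mt-Nd1 0.04, Sdhc 0.02 and Atp5g3 0.03, and with the acinar covariate mt-Nd3 -0.03, Sdhd -0.01 and Cox4i1 -0.08. With the length trend removed they were mt-Nd1 0.01 and Cox7a2l 0.02. Without MEKi 3 and MEKi 4 they were mt-Nd1 0.08, mt-Nd2 0.03, mt-Nd3 -0.00, mt-Nd5 0.00, mt-Nd6 -0.01, Ndufa13 0.04, Ndufa2 0.07, Ndufa4l2 0.03, Sdha -0.01, Sdhb 0.00, Sdhc 0.04, mt-Cytb 0.02, Uqcr10 0.05, Uqcr11 0.00, mt-Co1 0.04, mt-Co2 -0.29, Cox4i1 -0.07, Cox4i2 0.05, Cox6a2 -0.11, Cox6b1 0.04, Cox7a2 0.00, Atp5a1 0.01, Atp5g1 0.01, Atp5g2 0.03, Atp5g3 0.05 and Atp5h 0.00.

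With each library left out in turn, ranges that cross 0 were -0.12 to 0.08 for mt-Nd1, -0.06 to 0.05 for Sdhd, -0.08 to 0.14 for Cox6a2, -0.10 to 0.06 for Cox7a2l, -0.03 to 0.12 for mt-Nd3, -0.09 to 0.08 for Cox4i1, -0.14 to 0.01 for Cox4i2, -0.14 to 0.07 for Ndufa4, -0.05 to 0.54 for mt-Co2, -0.20 to 0.00 for mt-Nd2, -0.03 to 0.13 for Sdha, -0.11 to 0.02 for Sdhc and -0.09 to 0.06 for Atp5g3. For the difference in the share of reads the range was -0.199 to 0.208. Depth limits mt-Atp6, mt-Nd3, Cox6a2 and Atp5l2-ps, which had few reads in most libraries.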
